A study of Mus musculus with 14 samples.

Results

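Transcripts of the orphan and the adhesion G-protein-coupled receptors were measured in long-term hematopoietic stem cells (LT-HSCs), the bone marrow cells that can rebuild blood over the long term. Members were the protein-coding genes whose symbol is Gpr followed by a number, here called orphan receptors, or Adgr followed by a letter and a number, the adhesion receptors. Of 55450 annotated genes, 100 met this rule, 73 of them orphan and 27 adhesion receptors, and another 2 with such a symbol were not protein-coding. The classes were kept apart throughout.

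All cells came from female C57BL/6 mice. The sort kept Lin- cells that carried Sca-1, c-Kit and CD150 and lacked CD48. Selp high-derived cells (3 libraries) and Selp low-derived cells (3 libraries) were the CD45.2+ LT-HSCs sorted 16 weeks after 1000 HSCs from old mice, high or low in surface P-selectin (Selp, an adhesion receptor best known from platelets and endothelium), had been given to lethally irradiated recipients aged 10 to 16 weeks. They were not sorted by P-selectin again, and the labels do not say if 1 library stands for 1 recipient. Selp high cells (4 libraries) and Selp low cells (4 libraries) were sorted by P-selectin straight from 4 mice older than 24 months, and Selp high and Selp low libraries with the same number were taken as 1 mouse. Each library was made from RNA of 5000 cells, and all 4 groups trace back to old donors, so no group held untransplanted young cells. Host, irradiation, transplantation itself, the CD45.2 gate and the time of collection changed together between the stages and cannot be told apart.

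G-protein-coupled receptors cross the membrane in 7 passes that carry a signal from outside the cell to heterotrimeric G proteins, which then act on adenylyl cyclase, phospholipase C or other effectors. Orphan receptors are those named before a ligand was known. Several have since been paired with protons, oxysterols or lysolipids, and some proteins that carry a Gpr symbol sit in Golgi or lysosomal membranes. Adhesion receptors have a long extracellular part that is cut at an autoproteolysis site next to the membrane, and the stump left behind can act as a tethered agonist. Adgrg1, also known as Gpr56, is the adhesion receptor best known in HSCs and is used as an HSC marker.

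The libraries held 22374794 to 38216775 reads assigned to genes. Genes with enough reads (edgeR's filter, minimum count 10) were tested, 16878 in number, among them 38 orphan and 17 adhesion receptors. Levels are CPM, the reads of a gene scaled to the size of its library after TMM normalisation, and a gene was called at an adjusted p under 0.05 in edgeR's quasi-likelihood test with Benjamini-Hochberg adjustment over all genes tested. Selp averaged 301 ± 15.7 CPM in Selp high-derived, 269 ± 23.7 CPM in Selp low-derived (SD, n = 3 each), 701 ± 73.4 CPM in Selp high libraries and, in the Selp low group, 566 ± 96.7 CPM (SD, n = 4 each). The difference by P-selectin sort before transplantation was 0.31 ± 0.12 on the log2 scale (SE) and not called (edgeR adjusted p = 0.957). Of the 10 LT-HSC markers listed, all were detected, with a sum of 3370 to 4560 CPM after and 4460 to 5320 CPM before transplantation. A list of 10 neutrophil genes summed to 399 to 11700 CPM after and 395 to 18300 CPM before transplantation, highest in mouse 4 (18300 CPM for Selp high, 14000 CPM for Selp low), then in replicate 2 of the Selp low-derived group (11700 CPM), although granulocyte antigens were part of the lineage gate. Counts of members that moved without these 3 libraries are given beside the results below.

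Which receptors LT-HSCs transcribed was read from CPM per kilobase of exon, averaged over the 14 libraries, the scale on which genes are ranked here. The adhesion class was led by Adgrg1, with a level of 1050 CPM per kb, rank 14 among all 16878 genes tested. Adgrl4, an adhesion receptor otherwise known from endothelium, had a level of 223 CPM per kb (rank 137). The next adhesion receptors were more than 10 times lower. Adgre5, the leukocyte receptor CD97 that binds CD55, had a level of 16.7 CPM per kb, Adgra3 12.1, the latrophilin Adgrl2 5.59, Adgrd1, a receptor that raises cAMP, 5.29, Adgrg2 4.86 and Adgrg7 4.11 CPM per kb. As a share of reads, not corrected for length, Adgrg1 made up 74.7 to 86.2% of the summed CPM of the adhesion class in the 14 libraries.

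No orphan receptor reached the level of Adgrg1 or Adgrl4, and the leading orphan receptors stood closer together. Several of them lay above Adgre5, the next adhesion receptor, at 16.7 CPM per kb. Gpr171, for which a neuropeptide ligand is known from brain, led with a level of 67 CPM per kb. Gpr108, a Golgi protein, followed with 48.0, the oxysterol receptor Gpr183 with 39.6, Gpr180 with 23.9, Gpr146 with 11.4, the proton-sensing family member Gpr132 with 10.5, Gpr89, an anion channel that sets Golgi pH, with 8.33, and the proton sensor Gpr4 with 7.09 CPM per kb. A mean of at least 10 CPM was reached by 12 of the 38 orphan and 9 of the 17 adhesion receptors tested, while 12 and 3 of them stayed under 1 CPM.

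**Figure D1:**
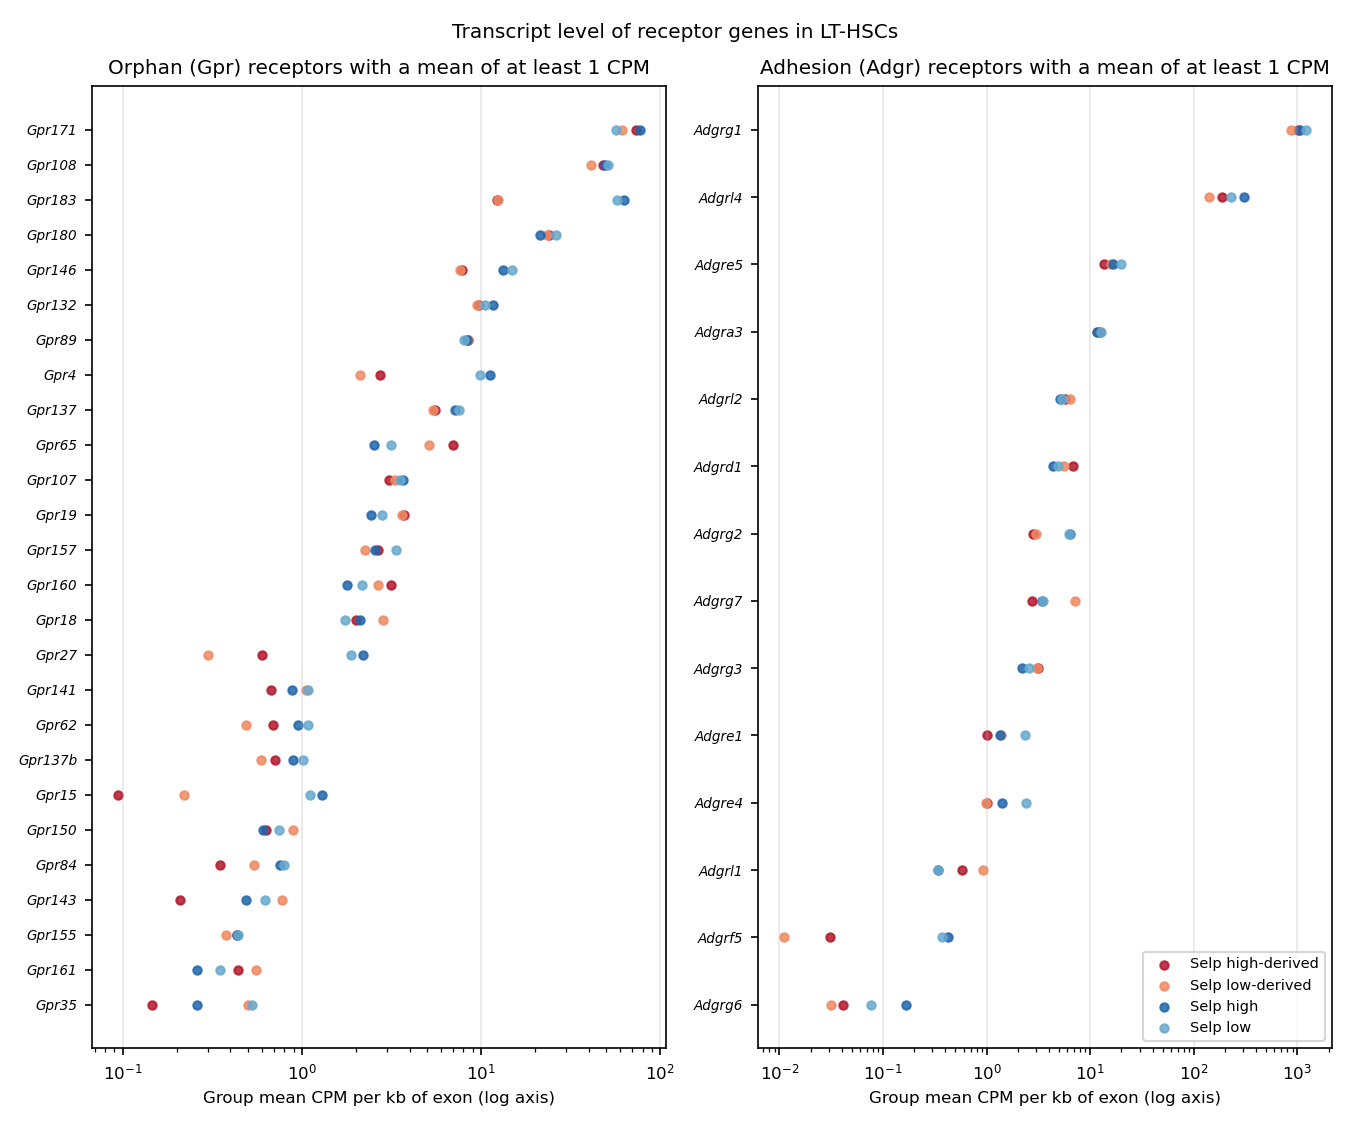
Mean level of each tested receptor gene with a mean of at least 1 CPM, in CPM per kb of exon (log axis), 1 row per gene, 1 point per group of libraries (Selp high-derived and Selp low-derived, n = 3 each; Selp high and Selp low, n = 4 each), orphan class on the left and adhesion class on the right. Adgrg1 at 1050 and Adgrl4 at 223 CPM per kb stand apart from the other adhesion receptors, whereas Gpr171 at 67 CPM per kb heads a gradual decline among the orphan receptors.

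The other 45 members were not tested. Of these, 35 were orphan receptors, with a mean of at most 0.217 CPM, and 11 of the 35 had no read in any library, among them Gpr17, Gpr37, Gpr83 and Gpr101. The remaining 10 were adhesion receptors with a mean of at most 0.0937 CPM, and Adgra1, Adgrg4 and Adgrl3 had no read. A count of 0 over all libraries allows a level of up to 0.0077 CPM (3 reads), a limit that covers counting error only. Exon bases shared with another gene occur in 24 orphan and 8 adhesion receptors. Reads were counted without regard to strand, so such a receptor and its neighbour on the opposite strand are told apart only by their unshared bases.

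The first comparison asked how receptor transcripts differed in LT-HSCs after transplantation from those before it, as the mean of both inputs. Of the 38 orphan receptors tested, 2 rose and 10 fell. The 12 called make up 31.6%, against 27.4% of all genes tested. The 10 that fell are to be read against 14.6% of all genes called lower, and the 2 that rose against 12.9% called higher. The median log2 change of the tested orphan receptors was -0.44, against -0.01 over all genes. Of the 17 adhesion receptors tested, 2 rose and 4 fell, 35.3% of them, with a median of -0.29. The shares called were close to the background in both classes. An unadjusted p under 0.05 was found for 15 orphan and 8 adhesion receptors, against 39% of all genes. Without mouse 4 and replicate 2 of the Selp low-derived group, 4 orphan receptors rose and 9 fell, and 4 adhesion receptors rose and 4 fell. The number of orphan receptors that rose was 1 when any of Selp high replicates 1 and 3, the 3 Selp low-derived replicates and Selp high-derived replicates 2 and 3 was left out and 4 without Selp high replicate 4, and the number that fell was 6 when Selp low replicate 2, Selp high-derived replicate 3 or Selp low-derived replicate 1 was left out. The number of adhesion receptors that rose was 1 without Selp low replicate 4, Selp high replicates 1 or 3, Selp low-derived replicates 1 or 3, or any Selp high-derived replicate.

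Of the proton-sensing receptors, which couple acid outside the cell to G proteins, Gpr4 fell and Gpr65 rose. Gpr4 is best known from endothelium. It had 8.64, 8.91 and 6.16 CPM in Selp high-derived and 6.19, 6.5 and 5.58 CPM in Selp low-derived libraries, against 27.0, 31.7, 36.0 and 35.7 CPM in Selp high and 26.7, 35.5, 29.4 and 22.3 CPM in Selp low libraries. Every library after transplantation lay below every library before it. The log2 change of -2.13 ± 0.14 (SE) is 4.39-fold lower (edgeR adjusted p = 5.26e-07), the smallest p of any orphan or adhesion receptor.

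Gpr65, known from lymphocytes and macrophages, where acid makes it raise cAMP, moved the other way. It had 13.5, 13 and 16.7 CPM in Selp high-derived and 10.5, 11.6 and 9.74 CPM in Selp low-derived libraries, against 2.37, 3.78, 6.85 and 8.04 CPM in Selp high and 4.45, 6.96, 7.83 and 6.92 CPM in Selp low libraries. The stages did not overlap, and the log2 change was 1.08 ± 0.24 (2.11-fold higher, edgeR adjusted p = 0.004). Of its exon bases, 511 are shared with the antisense gene Gm47566. Gpr132, with a higher level per kb than Gpr4 or Gpr65, had a lowest, median and highest value of 19.8, 25.8 and 32.5 CPM after and 19.1, 29.6 and 36.1 CPM before transplantation and was not called (log2 change -0.20 ± 0.15, edgeR adjusted p = 0.324).

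The upstream sequences of Gpr4 and Gpr65 are shown because these related receptors changed in opposite directions. Each window runs from 250 bases before to 50 bases after the RefSeq start on GRCm38.p6, at chr7:19212288-19212587 on the plus strand for Gpr4 and chr12:98268385-98268684 on the plus strand for Gpr65. Capitals mark AGGAAG, the core letters of ETS factor motifs, on either strand.
Gpr4: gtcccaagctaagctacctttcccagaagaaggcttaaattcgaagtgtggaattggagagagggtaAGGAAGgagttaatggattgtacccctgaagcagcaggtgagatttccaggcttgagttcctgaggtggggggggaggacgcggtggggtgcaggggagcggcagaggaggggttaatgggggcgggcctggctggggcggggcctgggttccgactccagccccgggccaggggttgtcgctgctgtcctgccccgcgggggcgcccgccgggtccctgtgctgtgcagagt
Gpr65: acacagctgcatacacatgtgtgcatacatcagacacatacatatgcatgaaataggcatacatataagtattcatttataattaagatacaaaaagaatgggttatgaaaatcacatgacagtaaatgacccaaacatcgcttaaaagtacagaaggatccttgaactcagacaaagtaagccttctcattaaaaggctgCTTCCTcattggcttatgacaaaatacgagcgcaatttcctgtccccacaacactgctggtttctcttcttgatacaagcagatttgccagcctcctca
Each window held 1 match, and 35.4% of 32851 RefSeq windows of the same length held at least 1. The RUNX letters TGTGGT, the GATA letters AGATAA and the AP-1 letters TGANTCA, searched on both strands with overlaps allowed, were found in neither; they occur in 16.8%, 11.2% and 7.81% of the windows. A match describes letters only and is not a binding site.

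Of the 9 receptors listed for lipid ligands, 7 were tested and Gpr183 was the only member called in this comparison, with a lower level after transplantation. Over all genes tested, 14.6% were called lower and 12.9% higher. Gpr183, also known as EBI2, binds oxysterols and positions B cells and other leukocytes in lymphoid tissue. It had 48.5, 36.0 and 21.9 CPM in Selp high-derived and 18.2, 52.5 and 36.4 CPM in Selp low-derived libraries, against 175, 221, 190 and 138 CPM in Selp high and 160, 163, 195 and 147 CPM in Selp low libraries. The highest value after transplantation was 52.5 CPM and the lowest before it 138 CPM. The log2 change was -2.28 ± 0.23, 4.87-fold lower (edgeR adjusted p = 1.19e-05).

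Its window, at chr14:121965144-121965443 on the minus strand, is printed for comparison with that of Gpr4, which fell by a like amount. It held none of the 4 motifs.
Gpr183: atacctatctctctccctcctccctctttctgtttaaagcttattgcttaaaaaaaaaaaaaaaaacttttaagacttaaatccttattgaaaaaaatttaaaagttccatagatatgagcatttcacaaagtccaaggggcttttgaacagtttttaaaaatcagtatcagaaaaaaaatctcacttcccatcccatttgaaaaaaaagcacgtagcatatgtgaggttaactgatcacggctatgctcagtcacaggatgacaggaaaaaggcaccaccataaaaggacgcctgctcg
Gpr18, a lymphocyte receptor whose gene lies 36.8 kb from Gpr183 on chromosome 14, had 2.31, 3.13 and 6.99 CPM (lowest, median, highest) after and 1.51, 2.80 and 4.19 CPM before transplantation and was not called (log2 change 0.31 ± 0.30).

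The other lipid receptors were low. Gpr84, a receptor for medium-chain fatty acids of myeloid cells, reached at most 1.19 CPM after and 2.06 CPM before transplantation (log2 change -0.83 ± 0.39, edgeR adjusted p = 0.129). The lysophosphatidylserine receptor Gpr34 reached at most 1.16 and 1.80 CPM, and Gpr35 at most 3.82 and 4.78 CPM. Gpr55, a lysophosphatidylinositol receptor, had 1.11 CPM in the Selp high and 1.56 CPM in the Selp low library of mouse 4. It had at most 0.569 CPM in any other library. The mouse 4 libraries also had the highest sums of the listed neutrophil, B cell, erythroid, and macrophage and monocyte genes. The part of other cells in the values of these receptors was not tested.

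Gpr146 and Gpr27 also fell in both inputs. Gpr146 (chr5:139377697-139396415, plus strand, GENCODE M21 on GRCm38, as for the gene positions below), studied for its part in liver cholesterol metabolism, had 43.1, 62.5 and 53.5 CPM in Selp high-derived and 47.5, 50.2 and 58.2 CPM in Selp low-derived libraries, against 92.7, 88.6, 94.8 and 85.6 CPM in Selp high and 84.8, 103, 117 and 99.0 CPM in Selp low libraries. The stages did not overlap, and the change was 1.82-fold lower (log2 -0.86 ± 0.10, edgeR adjusted p = 3.09e-05). Gpr27 (chr6:99692679-99695066, plus strand), a receptor highly conserved among vertebrates, had 1.42, 2.02 and 0.876 CPM in Selp high-derived and 0.769, 0.361 and 1.03 CPM in Selp low-derived libraries, against 4.78, 4.93, 4.58 and 6.81 CPM in Selp high and 4.79, 2.97, 3.78 and 6.51 CPM in Selp low libraries. Again no library after transplantation reached the lowest one before it, and the change was 4.8-fold lower (log2 -2.26 ± 0.29, edgeR adjusted p = 7.59e-05). In all, groups by stage did not overlap for 4 orphan receptors with lower levels (Gpr4, Gpr183, Gpr146 and Gpr27) and for Gpr65 with higher levels, against 5.47% of all genes lower and 4.28% higher without overlap.

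**Figure D2:**
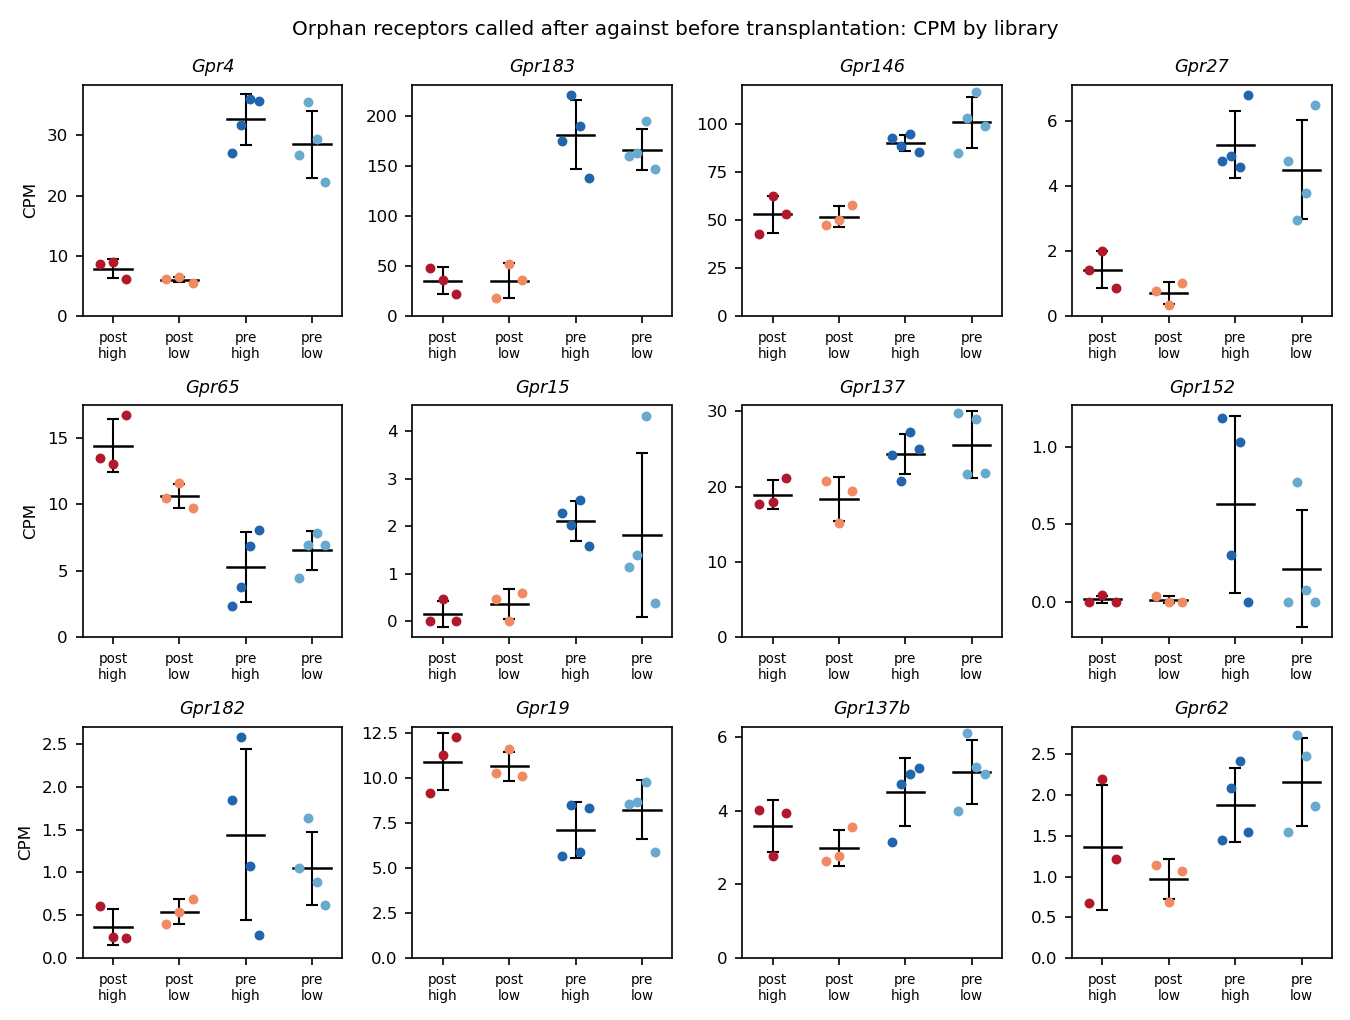
CPM of the 12 orphan receptors called after against before transplantation, 1 point per library, horizontal line for the group mean and bars for 1 SD; groups from left to right are Selp high-derived (post high), Selp low-derived (post low), Selp high (pre high) and Selp low (pre low), and each panel has its own linear axis. Gpr4, Gpr183, Gpr146 and Gpr27 show lower levels in all 6 libraries after transplantation and Gpr65 shows higher ones, whereas the stages overlap in the other 7 panels.

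Gpr15 and Gpr152 rested on few reads. Gpr15, a homing receptor of gut T cells, had 38 reads in 3 of 6 libraries after transplantation, against 437 reads in all 8 libraries before it (log2 change -3.08 ± 0.85, edgeR adjusted p = 0.0148). Its values reached 0.601 CPM after and lay between 0.381 and 4.32 CPM before transplantation, and 204 of its exon bases are shared with Cpox on the opposite strand. The 6 listed T and NK cell genes summed to 85.9 to 126 CPM after and 139 to 313 CPM before. Of these, Cd3e, Cd3d, Cd3g and Trac each averaged under 1 CPM in every group, the NK cell gene Klrb1c fell (log2 change -2.91, edgeR adjusted p = 1.02e-05) and Nkg7, of NK and cytotoxic T cells, rose (1.76, 7.86e-04). Their part in the Gpr15 value was not tested. Gpr152 had 2 reads after transplantation and 100 reads in 5 of 8 libraries before it, with 0 reads in Selp high replicate 4 and Selp low replicates 1 and 4. Its call (edgeR adjusted p = 0.0263) was lost with limma voom (adjusted p = 0.206) and without Selp high-derived replicate 1 (0.0620) or 3 (0.0654) or Selp low-derived replicate 1 (0.0526), 2 (0.0565) or 3 (0.0599).

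Of the 9 multipass proteins of internal membranes that carry a Gpr symbol, all were tested, 2 fell and none rose. Over all genes tested, 14.6% were called lower and 12.9% higher. The lysosomal protein Gpr137 had 15.1, 18.7 and 21.1 CPM (lowest, median, highest) after and 20.8, 24.6 and 29.8 CPM before transplantation (log2 change -0.42 ± 0.12, edgeR adjusted p = 0.0189), and the ranges overlapped by a narrow margin. It shares 524 exon bases with Bad on the opposite strand. Gpr137b, its lysosomal relative, had 2.64, 3.17 and 4.02 CPM after and 3.14, 4.99 and 6.10 CPM before (log2 change -0.54 ± 0.18, edgeR adjusted p = 0.0394). That call was lost in 9 of 14 fits without 1 library, with adjusted p up to 0.0916, and kept only without Selp low replicates 1 or 4, Selp high-derived replicate 1, Selp high replicate 1 or Selp low-derived replicate 3. The more highly transcribed Golgi proteins were not called. Gpr108 had 103 to 146 CPM after and 128 to 162 CPM before (edgeR adjusted p = 0.132), and Gpr89 had 42.1 to 48.5 CPM after and 39.4 to 50.4 CPM before (edgeR adjusted p = 0.745). Gpr180 was not called either, at 31.4 to 53.5 CPM after and 34.6 to 57.7 CPM before transplantation (edgeR adjusted p = 0.965).

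The remaining calls among orphan receptors were small or near the threshold. Gpr182, a scavenger of chemokines on sinusoidal and lymphatic endothelium, had 0.236, 0.472 and 0.687 CPM (lowest, median, highest) after and 0.277, 1.06 and 2.58 CPM before transplantation (log2 change -1.46 ± 0.46, edgeR adjusted p = 0.0283). It was lost in 6 of 14 fits without 1 library, at an adjusted p of 0.05 without Selp high replicate 1, 0.0560 without Selp high replicate 2, 0.0585 with replicate 2 of the Selp low group left out, 0.0698 without Selp low-derived replicate 1, and 0.0657 and 0.0687 without Selp high-derived replicates 2 and 3. Gpr19 rose, with 9.17, 10.8 and 12.3 CPM after and 5.66, 8.44 and 9.80 CPM before (log2 change 0.49 ± 0.16, edgeR adjusted p = 0.0299), and its call was lost in 7 of 14 such fits, with adjusted p up to 0.0901, being kept without any Selp low replicate, Selp high replicates 2 or 4 or Selp high-derived replicate 1. Gpr62, known from oligodendrocytes, had 0.676, 1.10 and 2.19 CPM after and 1.45, 1.98 and 2.73 CPM before (log2 change -0.81 ± 0.29, edgeR adjusted p = 0.0484). The call of Gpr62 held only without Selp low replicate 1 or Selp high-derived replicate 2 and was lost in the other 12 fits (adjusted p up to 0.0930). Of the 3 receptors listed as intrinsically active and cAMP-raising, Gpr3 alone was tested, at no more than 0.911 CPM, and was not called.

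Adhesion receptors are described by subfamily, each to be read against 14.6% of all genes called lower and 12.9% called higher. Of 7 members of subfamily G, 5 were tested, and Adgrg1 and Adgrg2 fell. Adgrg2 (chrX:160390690-160498070, plus strand), first known from the epididymis, had 14.6, 15 and 14.3 CPM in Selp high-derived and 12.6, 16.8 and 18.5 CPM in Selp low-derived libraries, against 34.4, 42.1, 31.1 and 28.1 CPM in Selp high and 30.1, 36.4, 35.7 and 29.3 CPM in Selp low libraries. The stages did not overlap. The log2 change of -1.13 ± 0.12 is 2.19-fold lower (edgeR adjusted p = 2e-05).

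Adgrg1 (chr8:94974751-95014217, plus strand), the most highly transcribed member, binds collagen in the developing brain. It had 4930, 5570 and 5880 CPM in Selp high-derived and 4550, 4310 and 5180 CPM in Selp low-derived libraries, against 5940, 6220, 5770 and 5260 CPM in Selp high and 6530, 6880, 7030 and 5830 CPM in Selp low libraries. The stages overlapped, Selp high replicate 4 being lower than 2 of the Selp high-derived libraries. The log2 change was -0.29 ± 0.07 (edgeR adjusted p = 0.0101), and without the low-count filter it was not called (edgeR adjusted p = 0.0552). Its neighbours on chromosome 8, Adgrg5 and Adgrg3, had levels of 0.0299 and 2.69 CPM per kb, against 1050 CPM per kb for Adgrg1. Adgrg3, a granulocyte receptor whose gene starts 3.48 kb downstream of Adgrg1, had 19.3, 21.5 and 23.5 CPM (lowest, median, highest) after and 8.15, 13.4 and 28.5 CPM before transplantation and was not called (edgeR adjusted p = 0.290). Adgrg3 had its highest values before transplantation in the mouse 4 libraries (27.3 CPM in Selp high, 28.5 CPM in Selp low), which had the highest neutrophil sums, and their part in its level was not tested. Adgrg5, on the other side of Adgrg1, had reads in only 5 libraries.

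In subfamily L, Adgrl4 fell and Adgrl1 rose. Adgrl4 had 1010, 797 and 783 CPM in Selp high-derived and 675, 656 and 613 CPM in Selp low-derived libraries, against 1100, 1450, 1550 and 1460 CPM in Selp high and 736, 1070, 1170 and 1210 CPM in Selp low libraries. Within each input the stages did not overlap, whereas over both inputs Selp low replicate 1 lay below 3 libraries sorted after transplantation. The log2 change was -0.69 ± 0.12, 1.61-fold lower (edgeR adjusted p = 7.55e-04). The 6 listed endothelial genes summed to 112 to 146 CPM after and 173 to 249 CPM before transplantation. Of the 5 of them tested, Kdr and Plvap fell (log2 changes -2.12 and -2.51) and Pecam1, Emcn and Stab2 were not called. Cdh5, which defines endothelium, was not tested and averaged at most 0.427 CPM in any group. Whether fewer cells or less RNA per cell lowered a transcript cannot be told apart in such bulk libraries, here or for any other member.

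The window of Adgrl4, at chr3:151437632-151437931 on the plus strand, is shown because it was the most highly transcribed member called in both inputs. It held 1 AGGAAG, in capitals, and no other motif searched.
Adgrl4: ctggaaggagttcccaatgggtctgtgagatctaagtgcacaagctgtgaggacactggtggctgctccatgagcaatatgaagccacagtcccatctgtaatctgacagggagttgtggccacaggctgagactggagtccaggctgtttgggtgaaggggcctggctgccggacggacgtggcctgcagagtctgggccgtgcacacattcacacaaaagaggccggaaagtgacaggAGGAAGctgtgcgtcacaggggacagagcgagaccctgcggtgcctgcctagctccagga
Adgrl1 (chr8:83900105-83941954, plus strand), known as latrophilin-1, a receptor for teneurins on neurons, had 3.63, 6.77 and 4.51 CPM in Selp high-derived and 9.15, 8.88 and 5.96 CPM in Selp low-derived libraries, against 2.68, 2.73, 2.41 and 3.88 CPM in Selp high and 1.72, 2.86, 2.89 and 4.29 CPM in Selp low libraries. The stages overlapped only at Selp high-derived replicate 1, and the log2 change was 1.10 ± 0.23 (edgeR adjusted p = 0.00256). Of its exon bases, 1343 are shared with other genes. Its relative Adgrl2 had 78.1, 87.6 and 96.5 CPM (lowest, median, highest) after and 61.1, 73.5 and 92.7 CPM before transplantation and was not called (log2 change 0.23 ± 0.10, edgeR adjusted p = 0.0930).

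Adgrf5 (chr17:43360451-43459557, plus strand), a receptor of lung epithelium and endothelium, was the member of subfamily F that fell. It had 0, 0.631 and 0.202 CPM in Selp high-derived and 0, 0 and 0.300 CPM in Selp low-derived libraries, against 6.20, 2.84, 3.79 and 2.58 CPM in Selp high and 7.22, 2.06, 2.16 and 1.87 CPM in Selp low libraries. These are 28 reads after and 814 reads before transplantation, and the stages did not overlap (log2 change -4.45 ± 0.78, edgeR adjusted p = 8.35e-04). Adgrf5 and Adgrg2 were the 2 of 17 adhesion receptors tested whose stages did not overlap. Both were lower, against 5.47% of all genes lower and 4.28% higher without overlap. Adgrd1, the 1 member of subfamily D, had 35.7, 54.5 and 59.6 CPM (lowest, median, highest) after and 32.2, 33.8 and 51.2 CPM before transplantation (log2 change 0.40 ± 0.14, edgeR adjusted p = 0.0428). Its call was lost in 10 of 14 fits without 1 library, with adjusted p up to 0.139, and held without Selp low replicates 2 or 3, Selp high replicate 2 or Selp low-derived replicate 2.

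In subfamily E, the receptors of myeloid and other leukocytes, all 3 members were tested and none was called. Adgre5 had 37.2, 57.4 and 68.8 CPM (lowest, median, highest) after and 44.3, 71.1 and 82.4 CPM before transplantation (log2 change -0.30 ± 0.15, edgeR adjusted p = 0.154), and shares 926 exon bases with Ddx39 and a miRNA gene. Adgre1, the macrophage antigen F4/80, had 2.48 to 4.81 CPM after and 0.727 to 21 CPM before, and Adgre4, another myeloid receptor, 1.95 to 5.15 CPM after and 1.57 to 19.8 CPM before. The highest value of both was that of Selp low replicate 4, the library with the highest sum of the 8 listed macrophage and monocyte genes (442 CPM, Adgre1 included), and the part of such cells in it was not tested. Neither Adgra2 nor Adgra3 of subfamily A nor Adgrb2 of subfamily B was called, and Adgra3 had 88.4 to 111 CPM after and 78.8 to 124 CPM before transplantation.

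**Figure D3:**
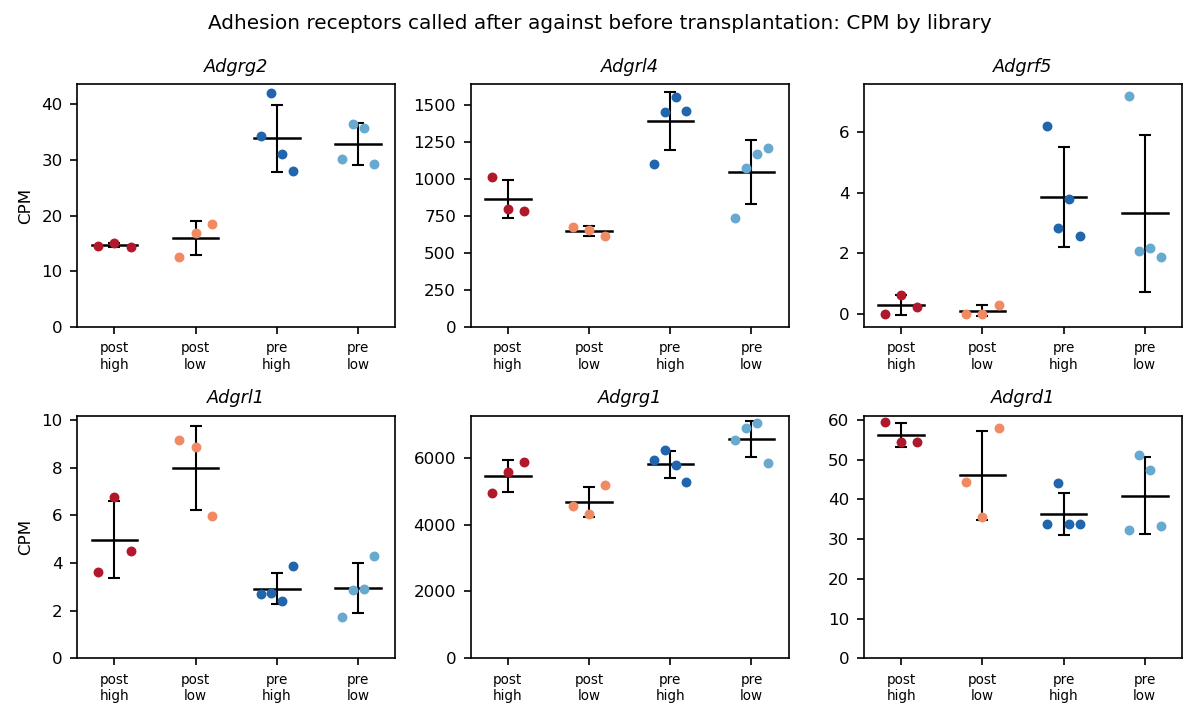
CPM of the 6 adhesion receptors called after against before transplantation, 1 point per library, horizontal line for the group mean and bars for 1 SD; groups from left to right are Selp high-derived (post high), Selp low-derived (post low), Selp high (pre high) and Selp low (pre low), each panel with its own linear axis. Adgrg2 and Adgrf5 are lower in all 6 libraries after transplantation, Adgrl4 is lower within each input, and the range of Adgrg1 (4310 to 5880 CPM after, 5260 to 7030 CPM before) overlaps between the stages.

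The same change was then taken in each input. In Selp high input, Gpr65 rose and Gpr4, Gpr183, Gpr146 and Gpr27 fell (13.2% of the 38 orphan receptors, against 15.2% of all genes, 7.63% called higher and 7.62% lower), while Adgrd1 rose and Adgrf5, Adgrg2 and Adgrl4 fell (23.5% of 17). In Selp low input, Gpr174 rose and Gpr4, Gpr183, Gpr146, Gpr27 and Gpr157 fell (15.8%, against 11.5% of all genes, 5.01% called higher and 6.46% lower), while Adgrg7 and Adgrl1 rose and Adgrf5, Adgrg1, Adgrg2 and Adgrl4 fell (35.3%). An unadjusted p under 0.05 was found for 10 orphan and 5 adhesion receptors in Selp high input, against 28.9% of all genes, and for 11 and 6 in Selp low input, against 27.2%. In Selp high input, 8 orphan receptors were called without Selp high replicate 4 and 11 without mouse 4 and replicate 2 of the Selp low-derived group, and adhesion receptors numbered 2 without Selp high replicate 1 or Selp high-derived replicate 2 and 1 without Selp high-derived replicate 3. In Selp low input, 2 adhesion receptors were called without Selp low-derived replicate 1.

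Receptors called in both inputs numbered 7, 4 orphan and 3 adhesion. The log2 changes in Selp high and Selp low input were -2.04 and -2.22 for Gpr4, -2.35 and -2.22 for Gpr183, -0.77 and -0.96 for Gpr146 and -1.88 and -2.65 for Gpr27. They were -1.21 and -1.04 for Adgrg2, -0.69 and -0.69 for Adgrl4 and -3.81 and -5.09 for Adgrf5. All 7 were lower, and no member rose in both inputs; 4.22% of all genes were called lower and 3.27% higher in both. The difference between the inputs, which is the interaction of P-selectin group and stage, was called for 0 of 16878 genes and 0 members (edgeR), with unadjusted p under 0.05 for 874 genes (5.18%), 2 orphan and 2 adhesion receptors among them. DESeq2 called 11 genes and no member for it, and limma voom 0 genes.

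Those 4 receptors were Adgrg7, Gpr174, Adgrg1 and Gpr157. Adgrg7, known from gut epithelium, had a log2 change after against before transplantation of -0.32 ± 0.25 in Selp high input and 1.03 ± 0.24 in Selp low input (interaction -1.34 ± 0.35, edgeR adjusted p = 0.879). The call in Selp low input was lost without Selp low-derived replicate 1 (edgeR adjusted p = 0.0794). Adgrg1 had a log2 change of -0.09 ± 0.10 in Selp high input and -0.49 ± 0.10 in Selp low input (interaction 0.40 ± 0.15, edgeR adjusted p = 0.879). Gpr157 had 13.7, 11.8 and 13.6 CPM in Selp high-derived and 9.70, 11.4 and 12.2 CPM in Selp low-derived libraries, against 13.2, 10.9, 12.8 and 13.2 CPM in Selp high and 13.5, 17.0, 19.4 and 15.9 CPM in Selp low libraries. Its call in Selp low input (log2 change -0.57 ± 0.17, edgeR adjusted p = 0.0424) was lost when only the libraries compared were fitted (adjusted p = 0.130) and in 10 of 14 fits without 1 library. It held without Selp low replicates 1 or 4 or Selp high replicates 2 or 4. Gpr174, a lysophosphatidylserine receptor of lymphocytes, had 0, 4 and 2 reads in Selp high-derived and 7, 22 and 32 reads in Selp low-derived libraries, against 0, 6, 0 and 14 reads in Selp high and 0, 3, 0 and 0 reads in Selp low libraries. Its call in Selp low input (edgeR adjusted p = 0.0406) was lost in 9 of 13 fits without 1 library, with adjusted p up to 0.120.

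Calls in 1 input also turned on single libraries elsewhere. Gpr65 in Selp high input (log2 change 1.45 ± 0.34, edgeR adjusted p = 0.00968) had an adjusted p of 0.0533 without Selp high-derived replicate 3, and Adgrl1 in Selp low input (1.44 ± 0.32, edgeR adjusted p = 0.0111) one of 0.0557 without Selp low-derived replicate 1. Adgrl4 was lost in Selp high input without Selp high-derived replicate 2 (edgeR adjusted p = 0.0585) or 3 (0.0661), and in Selp low input without Selp low replicate 3 (0.0526) or Selp low-derived replicate 1 (0.0579) or 3 (0.0633). Adgrf5 was lost in Selp high input without Selp high replicate 1 (edgeR adjusted p = 0.0512) or Selp high-derived replicate 1 (0.0648) or 3 (0.101), and in Selp low input without Selp low-derived replicate 1 (0.0658). Adgrd1 in Selp high input was lost in 7 of 14 such fits, with an edgeR adjusted p of up to 0.134. They left out Selp high replicates 1, 3 or 4, any Selp high-derived replicate, or Selp low-derived replicate 1. Of the libraries compared, only Selp high replicate 2 could be left out with the call kept. Calls of Gpr4, Gpr183, Gpr146, Gpr27 and Adgrg2 were kept in each input in all 14 fits without 1 library. For a call in 1 input, fits without a library of the other input leave the compared libraries whole and are a weaker check.

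**Figure D4:**
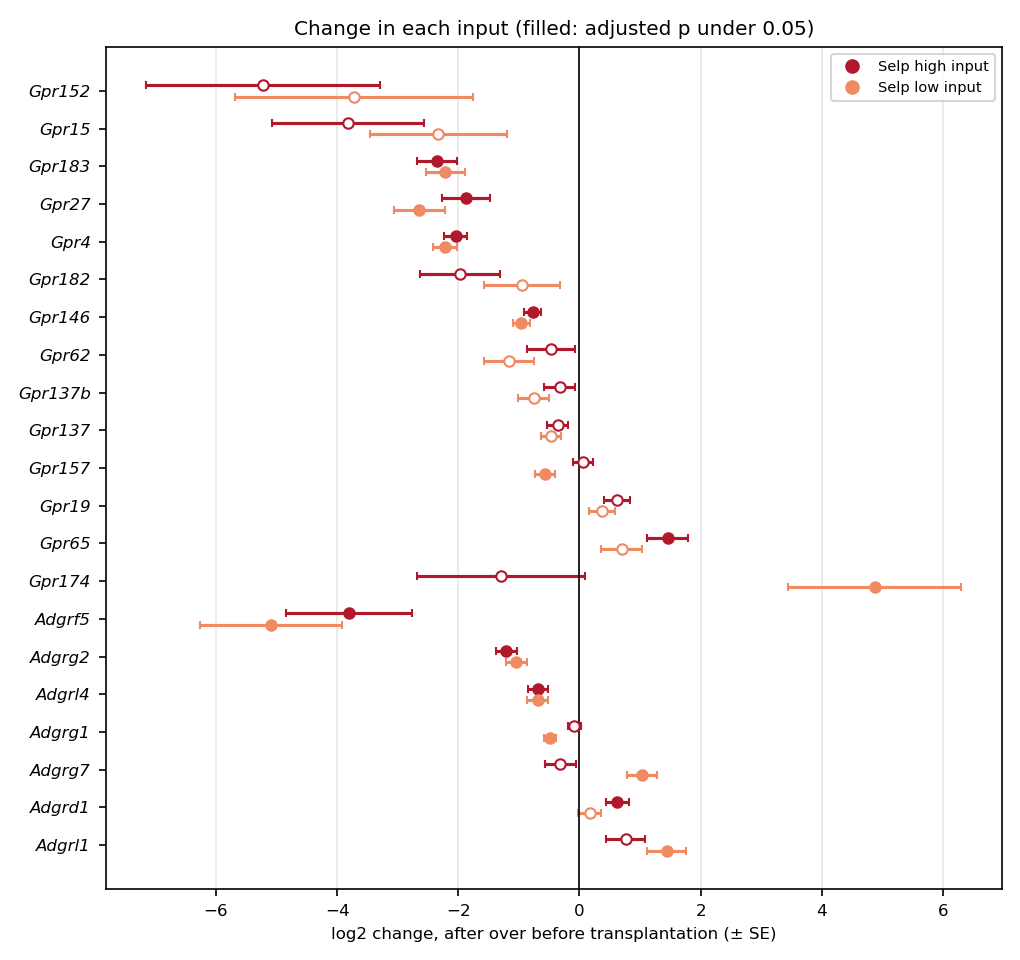
Log2 change after over before transplantation with its SE (horizontal axis) in Selp high input (dark red) and Selp low input (orange) for the 21 receptors called in either input or in their mean; filled points had an adjusted p under 0.05 in edgeR. Gpr4, Gpr183, Gpr146, Gpr27, Adgrf5, Adgrg2 and Adgrl4 are filled in both inputs and lie left of 0, and Gpr174 and Gpr152 have the widest bars.

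The second question was whether receptors differed with surface P-selectin before transplantation. No gene of 16878 was called between Selp high and Selp low cells, so 0 members were called in either class (edgeR). An unadjusted p under 0.05 was found for 863 genes (5.11%), among them 2 of the 38 orphan receptors, Gpr171 and Gpr157, and 1 of the 17 adhesion receptors, Adgrl4. That fit does not use the mouse. With the mouse as a block in edgeR, 2243 of 15426 genes tested, 6 members among them, had an unadjusted p under 0.05. In that fit 2 genes and 0 members were called. DESeq2 called 11 genes and no member, and limma voom called 0 genes.

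Adgrl4 was higher in Selp high cells in all 4 mice, with 1100, 1450, 1550 and 1460 CPM in Selp high against 736, 1070, 1170 and 1210 CPM in Selp low cells of mice 1 to 4 (log2 difference 0.41 ± 0.15, edgeR adjusted p = 0.957). Within each mouse the Selp high library was above its Selp low partner, although the groups overlapped. Gpr171 was likewise higher in all 4 mice, with 159, 148, 214 and 165 CPM in Selp high against 104, 124, 160 and 116 CPM in Selp low cells (log2 difference 0.45 ± 0.16, edgeR adjusted p = 0.957). With the mouse as a block, Adgrl4 and Gpr171 each had an adjusted p of 0.135 and were not called.

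Adgrg1 was lower in Selp high cells in all 4 mice (log2 difference -0.18 ± 0.10, edgeR adjusted p = 0.957), and its share of the CPM of the adhesion class, not corrected for length, was 80.8, 76.8, 75.6 and 74.7% in Selp high against 86.2, 82.5, 81.8 and 78.1% in Selp low cells of mice 1 to 4. Gpr157 did not overlap between the groups and was lower in Selp high cells (log2 difference -0.39 ± 0.15, edgeR adjusted p = 0.957); no member was higher without overlap, against 1.56% of all genes lower and 1.52% higher. Adgre5 had a log2 difference of -0.27 ± 0.20. A difference of 1 sign in 4 of 4 mice was found for 1 orphan receptor higher (Gpr171) and 6 lower (Gpr141, Gpr157, Gpr160, Gpr180, Gpr35 and Gpr62), 2.63% and 15.8% of the class, and for Adgrl4 higher and Adgrg1 and Adgrg3 lower, 5.88% and 11.8% of the adhesion class. Over all genes these shares were 10.8% higher and 12.2% lower. A sign was counted whatever its size, and some differences were near 0. In Selp high against Selp low cells, Gpr141 had 4.86 against 4.87 CPM in mouse 2. Gpr62 had 2.41 against 2.47 CPM in mouse 3, and Gpr157 13.2 against 13.5 CPM in mouse 1.

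After transplantation, Selp high-derived and Selp low-derived cells were compared in the same way, and again 0 of 16878 genes and 0 members were called by edgeR, with an unadjusted p under 0.05 for 765 genes (4.53%), 2 orphan and 3 adhesion receptors. Adgrg7 had the smallest p of any member. It had 10.5, 6.10 and 5.63 CPM in Selp high-derived against 22.2, 17.6 and 18.3 CPM in Selp low-derived libraries, without overlap. The log2 difference was -1.39 ± 0.27 (edgeR adjusted p = 0.484). DESeq2, which called 25 genes in this comparison, called Adgrg7 at an adjusted p of 0.00117, and limma voom, which called 0 genes, did not (adjusted p = 0.346). In cells before transplantation Adgrg7 showed no such gap, with 6.77, 9.98, 8.95 and 11.2 CPM in Selp high against 10.5, 8.13, 11.5 and 7.92 CPM in Selp low libraries (log2 difference -0.04 ± 0.23).

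Adgrl4 was again higher on the Selp high side, with 1010, 797 and 783 CPM in Selp high-derived against 675, 656 and 613 CPM in Selp low-derived libraries (log2 difference 0.42 ± 0.18, edgeR adjusted p = 0.979), and the interaction was 0.01 ± 0.24. For Gpr171 the libraries overlapped, with 186, 152 and 151 CPM in Selp high-derived against 129, 165 and 115 CPM in Selp low-derived libraries (log2 difference 0.25 ± 0.18). Gpr27 had a log2 difference of 1.00 ± 0.43 (edgeR adjusted p = 0.979) at no more than 2.02 CPM. Gpr135 (log2 difference 3.0 ± 1.60) and Adgrb2 (-3.90 ± 1.70, edgeR adjusted p = 0.979) had at most 0.818 and 0.439 CPM in any library after transplantation. Adgrl4 was higher, and Adgrb2, Adgre1, Adgrg7 and Adgrl2 were lower, in Selp high-derived libraries without overlap. Among orphan receptors Gpr65 was higher and Gpr174 lower without overlap. The shares over all genes were 4.79% higher and 5.55% lower without overlap. For Adgrb2 this rested on 1, 0 and 0 reads in Selp high-derived and 12, 1 and 6 reads in Selp low-derived libraries. Its groups met at 1 read and were parted only by library size.

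**Figure D5:**
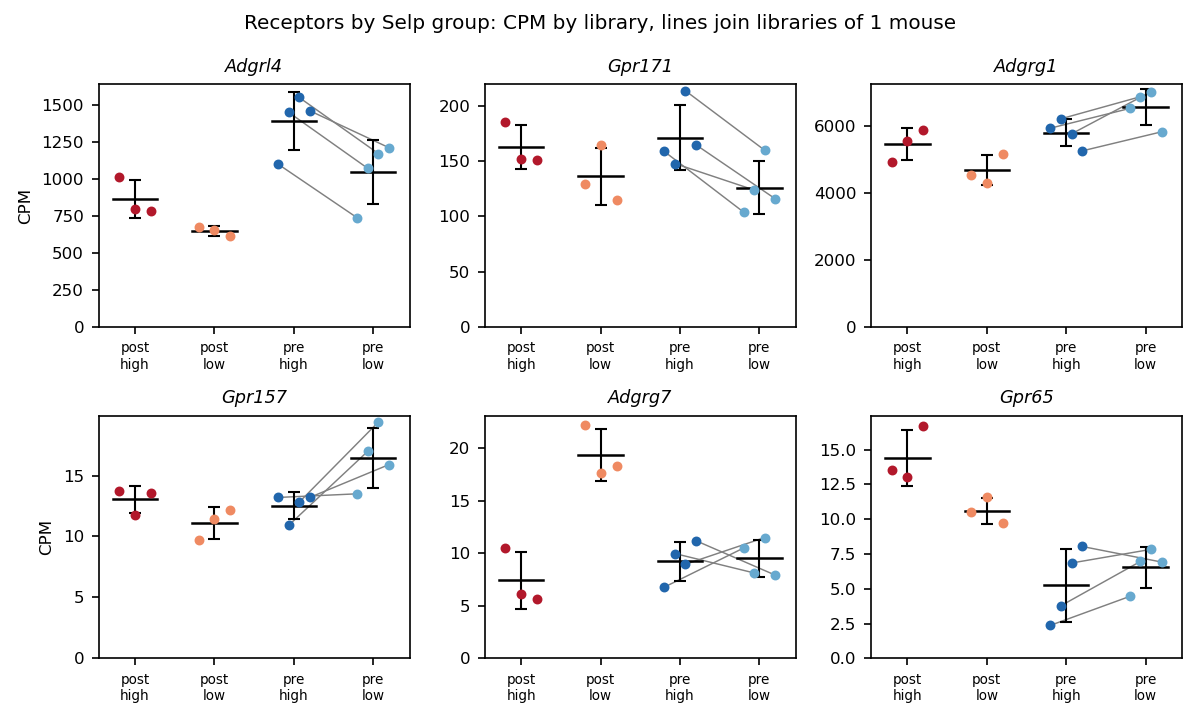
CPM of 6 receptors by P-selectin group, 1 point per library, horizontal line for the group mean and bars for 1 SD; groups from left to right are Selp high-derived (post high), Selp low-derived (post low), Selp high (pre high) and Selp low (pre low), and grey lines join the Selp high and Selp low libraries of 1 mouse. Adgrl4 and Gpr171 fall along all 4 lines from Selp high to Selp low, Adgrg1 and Gpr157 climb along them, and Adgrg7 separates the derived groups (5.63 to 10.5 CPM in Selp high-derived, 17.6 to 22.2 CPM in Selp low-derived).

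The genes that carry receptor signals onward were counted in the same fit. Of 24 G protein subunits tested, 3 rose and 6 fell after transplantation, with a median log2 change of -0.11; over all genes tested 12.9% rose and 14.6% fell, which is also the background of the other lists here. The gamma subunit Gng2 (log2 change 1.05 ± 0.12, edgeR adjusted p = 2.64e-05), the beta subunit Gnb4 (0.90 ± 0.12, 1.14e-04) and Gna15, an alpha subunit of blood cells that activates phospholipase C (0.74 ± 0.10, 1.27e-04), rose. Gnal, an alpha subunit that stimulates adenylyl cyclase (-3.47 ± 0.41, edgeR adjusted p = 4.33e-05), Gng7 (-0.88 ± 0.14, 3.47e-04) and Gnai1, an inhibitory alpha subunit (-1.03 ± 0.23, 0.00428), fell, as did Gnao1, Gnaz and Gnb5. Of the 7 receptor kinases and arrestins tested, Grk2 rose and none fell. Of 13 second messenger enzymes tested, Adcy3 rose and Adcy4 fell. None of these genes was called between P-selectin groups at either stage.

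The genes whose profile was most like that of Gpr4, by Pearson correlation of log2 CPM over the 14 libraries, were Ctsb (r = 0.986), S1pr1 (0.982), Zg16 (0.974), Agtr1a (0.973) and Lsr (0.973). For Adgrg2 they were Net1 (0.981), Ptges (0.980), Wwtr1 (0.979), Coq8a (0.977) and Trim47 (0.975). These are descriptions over libraries that fall into 2 stages, and each gene listed had a lower level after transplantation.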

How the data were processed

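Gene counts of 14 RNA-seq libraries were used. The deposited values are whole-number read counts per gene, made by the authors. The submitters' processing notes name STAR 2.7.0d, Picard 2.23.0, FastQC 0.11.9 and the build GRCm38, but no annotation release. Per the labels' protocols, cDNA was made from poly(A) RNA of 5000 cells by the SMART ultra-low input kit and libraries by Nextera XT. The column of counts without regard to strand was used, because the sums of the strand columns had a ratio of 0.989 to 0.999. Unmapped reads (3.35 to 5.06% of a library), multimapping reads (9.93 to 13.4%), reads in no gene (3.37 to 5.13%) and ambiguous reads (4.20 to 4.79%) stayed out of library sizes and tests.

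All 55450 identifiers matched GENCODE M21 (GRCm38), from which symbols, positions and exon lengths came. The test was that of edgeR 4.0.16 in R 4.3.3, with TMM factors and the quasi-likelihood test on 4 group means over all 14 libraries (10 residual degrees of freedom, biological coefficient of variation 0.322). Genes were kept by the expression filter with a minimum count of 10. The script was tested on simulated data. SE is that of the fit, and SD is over libraries. Log2 CPM for likeness carries a prior count of 2. Promoter windows came from RefSeq on GRCm38.p6, which held 72 of the 100 members and 13 of the 18 called after against before transplantation. Alternatives were DESeq2 1.42.0, limma 3.58.1 voom, other size factors, no filter, other library sets, a replicate block and the summed strand columns.

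Deviations from the group means of same-numbered Selp high and Selp low libraries correlated with r of 0.289 to 0.527, against -0.401 to 0.0493 for other pairs, so same-numbered libraries were treated as 1 mouse there. After transplantation r was -0.0509 to 0.0248, and numbers were not taken as pairs. Every pair of libraries within a group differed by more than sampling noise. P-values measure the spread between these libraries, which may be technical where their source is not given.

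Members, lists, tests and the naming rule were chosen with earlier results of these data known. The rule names receptors called in any comparison, the 8 highest per kb in each class, the 3 with the smallest p in each class in the P-selectin comparisons and the interaction, a fixed list of known receptors, and up to 6 called signalling genes with the smallest p. A few members and lists are not reported here.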

Additional observations from a re-analysis of the deposited data

Results flagged for a closer look

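In 80 groups of 4 libraries, 10 held a library far from the other 3. The cut is set to flag about 1 in 20 groups of normally spread values. Some genes flagged here have few reads, and the Selp high and Selp low groups come from the same mice. The 10 are therefore no measure of an excess. Selp low replicate 4 had 21 CPM of Adgre1, against 1.52 to 4.48 CPM in the other Selp low libraries, and 19.8 CPM of Adgre4, against 3.67 to 5.43 CPM. Gpr55 stood apart in both libraries of mouse 4, with 1.11 CPM (28 reads) in Selp high replicate 4, against 0 to 0.0748 CPM, and 1.56 CPM (45 reads) in Selp low replicate 4, against 0 to 0.232 CPM. Gpr27 had 6.81 CPM in Selp high replicate 4, against 4.58 to 4.93 CPM in the other Selp high libraries. Selp low replicate 1 had 7.22 CPM of Adgrf5, against 1.87 to 2.16 CPM, and 84.0 CPM of Adgra3, against 108 to 112 CPM. Adgrd1 had 44.2 CPM in Selp high replicate 2, against 33.7 to 33.8 CPM. In Selp low replicate 2, Gpr152 had 0.776 CPM (29 reads), against 0 to 0.0772 CPM, and Gpr174 had 0.0803 CPM, which is 3 reads, against 0.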

How the results depend on the processing

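The calls and the P-selectin differences and interactions of smallest p were recomputed for the named members; other printed differences, some of them near 0, were not. Of the recomputed values, none changed sign, 1100 kept their direction and side of the threshold, 108 lost a call and 1 gained one (Adgrg7 between the derived groups, with DESeq2). Among these fits are ones that left out only a library outside the comparison, which say little about its estimate. Of the counts of members, 270 stayed within 1.5 times and 32 did not. After against before transplantation, orphan receptors that rose numbered 2, against 1 without the low-count filter and 4 with the replicate block, and adhesion receptors that rose 2, against 1 without that filter. In Selp high input 5 orphan receptors were called, against 8 with DESeq2, and between the derived groups 0 adhesion receptors, against 1 with DESeq2. Leaving out each library in turn gave 1 to 4 orphan receptors that rose, 6 to 10 that fell and 1 to 3 adhesion receptors that rose. Without the 3 libraries named for neutrophil genes together, 4 orphan and 4 adhesion receptors rose and 11 orphan receptors were called in Selp high input. Leaving out 1 library gave 4 to 8 orphan and 1 to 4 adhesion receptors called in Selp high input and 2 to 6 adhesion receptors called in Selp low input. The cause was not tested. Adding the replicate number as a block called 0 members between Selp high and Selp low cells, where it marks a mouse, and 2 genes in all. Elsewhere libraries share only a number, and in the block fits calls of Adgrd1, Gpr137b and Gpr19 in the mean of inputs, Adgrl4 in each input, Adgrf5 in Selp high input and Gpr157 in Selp low input were lost. Without the low-count filter, calls of Adgrd1, Adgrg1, Gpr137b, Gpr19 and Gpr62 in the mean of inputs and Gpr157 in Selp low input were lost. Few reads limit the precision of Gpr152 and Gpr174, among other members of low level.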

Other observations

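Several members that lie within 200 kb of each other differed in level, whereas Adgrf4 and Adgrf2, 16.7 kb apart on chromosome 17, had 0.00264 and 0.00311 CPM per kb. On chromosome 8, Adgrg5, Adgrg1 and Adgrg3 had 0.0299, 1050 and 2.69 CPM per kb. On chromosome 17, Adgrf1 and Adgrf5 had 0.0156 and 0.237 CPM per kb, and Gpr108 and Adgre1, 110 kb apart, 48.0 and 1.56 CPM per kb. On chromosome X, Gpr34 and Gpr82 had 0.269 and 0.0157 CPM per kb. Adgre5 and Adgrl1, 159 kb apart on chromosome 8, had log2 changes of -0.30, not called, and 1.10, called, after against before transplantation.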
